A study of Mus musculus with 12 samples.

Results

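The 8 genes described here are *Angptl4*, *Lipg*, *Lpl*, *Lipe*, *Pnpla2*, *Abhd5*, *Mgll* and *Plin2*, out of 47729 genes in the deposited table. They were taken by their symbols, as a family built around *Angptl4*, whose level in the stress and CORT libraries was already known when the family was chosen. Their values in stress vs. Ctrl and CORT vs. vehicle are therefore a description and are given without p-values, and where a member is said to be called or past a threshold there, that too is a description and supports nothing. RNA came from intestinal stem cells (ISCs), sorted as live EpCAM+ CD24- cells with the brightest EGFP, and negative for CD31, CD45 and TER119, from crypts of the small intestine. The mice carried *Lgr5-EGFP-IRES-creERT2*, in which *Lgr5*, a stem cell marker, drives EGFP and an inducible Cre, so that EGFP marks cells in which this gene is active. Mice were 8 to 10 weeks old, of both sexes and on a standard diet, and the sex behind each library was not given. Each group had 3 libraries. Ctrl mice were not restrained (libraries 1, 2 and 3), and stress mice were restrained in a tube for 3 h on 1 day (libraries 1+2, 3 and 4+5+6). Stress libraries carry the abbreviation for chronic restraint in their titles, and the joined numbers read as pools of several mice. Vehicle mice received a cyclodextrin solution intraperitoneally (libraries 3, 5 and 6). CORT mice received a single injection of corticosterone at 5 mg/kg in the same solution (libraries 2, 4 and 5). In the chronic protocol the unrestrained mice also went without food and water during restraint. The interval from treatment to collection was not given for these libraries.

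Triglyceride in circulating lipoproteins is cut by lipoprotein lipase (*Lpl*), an enzyme held at the capillary wall, and ANGPTL4 is a secreted protein that inactivates this enzyme. *Angptl4* is known to be induced by fasting, through PPAR receptors that sense fatty acids, and by glucocorticoids. Inside cells, triglyceride stored in lipid droplets is cut in steps, by adipose triglyceride lipase (*Pnpla2*) with its coactivator *Abhd5*, then by hormone-sensitive lipase (*Lipe*) and monoacylglycerol lipase (*Mgll*), and *Plin2* encodes a protein that coats the droplet.

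Levels are given as CPM, counts scaled to library size with TMM factors over the 12 libraries. Total counts were 16152289 to 16943362 in Ctrl, 15934907 to 17135770 in stress, 16465961 to 31280267 in vehicle and 29426183 to 69533214 in CORT. A read pair gives up to 4 counts, and a level under 12 counts (3 read pairs) was treated as not measured, which is 0.702 to 0.732 CPM in Ctrl and 0.179 to 0.413 CPM in CORT. The study states that samples of a group were biologically independent, and the labels do not give the mice behind each library.

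The sort and the libraries were checked with marker genes before the 8 genes were read. The 6 ISC markers were present in all libraries, with summed levels of 10678 to 13937 CPM, of which *Olfm4* was the most abundant. *Lgr5* was at 225 ± 19.2 CPM in Ctrl and 212 ± 37.2 in stress (SD, n = 3 here and below), 199 ± 9.43 in vehicle and 148 ± 17.8 in CORT. *Ascl2*, another of the 6, was at 144 ± 5.22 CPM in Ctrl and 61.5 ± 7.59 in stress, 161 ± 11.2 in vehicle and 80.9 ± 24.5 in CORT. Of the 6, 1 passed the test as lower in stress than in Ctrl and 3 as lower in CORT than in vehicle, and none as higher. The log2 fold change was positive for 2 of the 6 in stress vs. Ctrl and for 1 in CORT vs. vehicle. The 7 enterocyte markers read here, led by *Fabp2*, summed to 188 to 210 CPM in Ctrl, 148 to 207 in vehicle and 136 to 210 in CORT. In stress they summed to 895, 364 and 1864 CPM in libraries 1+2, 3 and 4+5+6, above every other library, and 6 of the 7 passed the test as higher than in Ctrl. Goblet cell markers, led by *Fcgbp*, summed to 904 ± 467 CPM in stress against 479 ± 56.6 in Ctrl, and 2 of the 6 passed as higher. Their sums were 871, 454 and 1387 CPM in stress 1+2, 3 and 4+5+6, with stress 3 inside the Ctrl range of 440 to 544. Of 8 adipocyte markers, *Adipoq*, *Lep*, *Retn*, *Plin1*, *Fabp4* and *Adrb3* were at 0 in all 12 libraries, *Cfd* had at most 6 counts, and the sum of 1.61 to 5.37 CPM was almost all *Cidec*. The 6 macrophage, 6 blood cell and 6 stromal and endothelial markers summed to at most 6.28, 1.73 and 3.23 CPM in any library. *Pecam1*, the 1 stromal and endothelial marker tested in CORT vs. vehicle, passed as higher in CORT (2.35 ± 0.885 CPM). In vehicle it was at 0.544 ± 0.356 CPM, with at most 16 counts. Paneth cell markers, led by *Mmp7*, summed to 199 ± 12.8 CPM in vehicle and 108 ± 6.8 in CORT, where 4 of the 6 passed as lower. In all libraries they summed to 104 to 263 CPM, enteroendocrine cell markers, led by *Chgb*, to 9.5 to 65.1 CPM and tuft cell markers, led by *Pou2f3*, to 4.78 to 14.3 CPM.

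Libraries also differed in sex-linked RNA. *Xist*, which is made from the inactive X chromosome of female cells, was at 1.44 to 7.01 CPM in the Ctrl libraries. It was at 2.05, 0.243 and 752 CPM in stress 1+2, 3 and 4+5+6, at 16.8, 801 and 704 CPM in vehicle 3, 5 and 6, and at 2.27, 1331 and 996 CPM in CORT 2, 4 and 5. *Ddx3y*, on the Y chromosome, ran the other way, at 37.8 to 50.6 CPM in Ctrl and at 40.5, 0.698 and 0 CPM in vehicle 3, 5 and 6. Stress 4+5+6 held both, with 16.9 CPM of *Ddx3y*. Ctrl thus held no library with high *Xist* and the vehicle group held 2, so that sex-linked expression and the group were partly joined in vehicle vs. Ctrl.

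**Figure D1:**
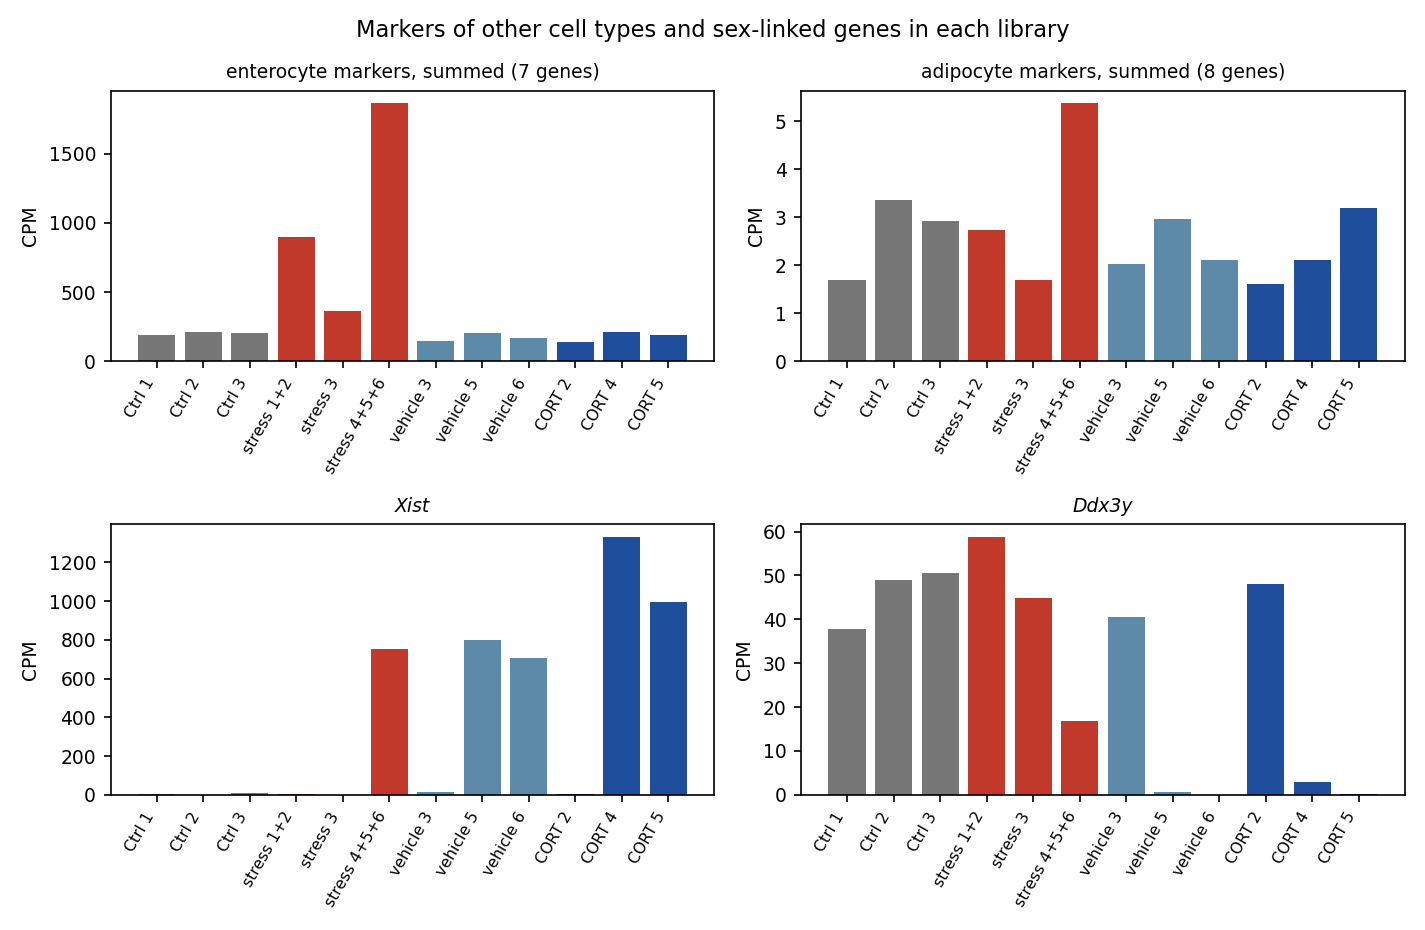
Summed level of the enterocyte and adipocyte markers and level of *Xist* and *Ddx3y*, in CPM on a linear axis from 0, with 1 bar per library coloured by group. The 3 stress libraries have the tallest enterocyte bars, adipocyte markers stay at or under 5.37 CPM, and *Xist* is high in stress 4+5+6, vehicle 5 and 6 and CORT 4 and 5.

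*Angptl4* (mm10, chr17:33773750-33781575, minus strand, up to 7 annotated exons) had the largest change of the members in stress vs. Ctrl and in CORT vs. vehicle. Its level was 6.2, 4.61 and 6.04 CPM in Ctrl 1, 2 and 3, and 80.0, 74.0 and 97.2 CPM in stress 1+2, 3 and 4+5+6. It was 13.4, 20.6 and 22.5 CPM in vehicle 3, 5 and 6, and 159, 139 and 95.5 CPM in CORT 2, 4 and 5. Neither treated group overlapped with its control group, the vehicle group lay wholly above Ctrl, and CORT 5, with the lowest *Angptl4* of its group, was still above stress 1+2 and 3. The log2 fold change was 3.90 (SE 0.16) in stress vs. Ctrl, a 14.9-fold higher level, and 2.79 (SE 0.22) in CORT vs. vehicle, 6.9-fold. The groups rose from 5.61 ± 0.877 CPM in Ctrl to 18.8 ± 4.78 in vehicle, 83.7 ± 12 in stress and 131 ± 32.5 in CORT. The group means of stress and CORT were not tested against each other, since they have different controls.

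Within stress, *Angptl4* followed the order of the enterocyte sums, with 97.2, 80.0 and 74.0 CPM in libraries 4+5+6, 1+2 and 3, where the markers summed to 1864, 895 and 364 CPM. The part of enterocyte RNA in the level was not tested. The log2 fold change without stress 4+5+6, the library with the highest enterocyte sum, was 3.78. No CORT library had an enterocyte sum above the highest Ctrl library, to 3 digits. With *Xist* as a covariate the log2 fold change was 3.81 (SE 0.14) in stress vs. Ctrl and 2.77 (SE 0.23) in CORT vs. vehicle. In bulk RNA a change in the share of cells that hold a transcript and a change per cell cannot be told apart.

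Vehicle vs. Ctrl was not the contrast on which the family was chosen, and was tested, although it shares its libraries with both other comparisons. *Angptl4* was higher in vehicle by 1.75 on the log2 scale (SE 0.23, 3.37-fold, edgeR adjusted p = 0.00661, with all 3 vehicle libraries above all 3 Ctrl libraries). The result moved with sex-linked expression: vehicle 3, with low *Xist*, had the lowest *Angptl4* of its group, and the log2 fold change was 0.99 (SE 0.33, adjusted p = 0.502) with *Xist* as a covariate. Vehicle 3 alone against the 3 Ctrl libraries gave 1.26 (SE 0.31, adjusted p = 0.153), assuming that the lone library varies like Ctrl. Injection, the solution, any missing hours of food and the sex of the mice cannot be told apart in this comparison.

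**Figure D2:**
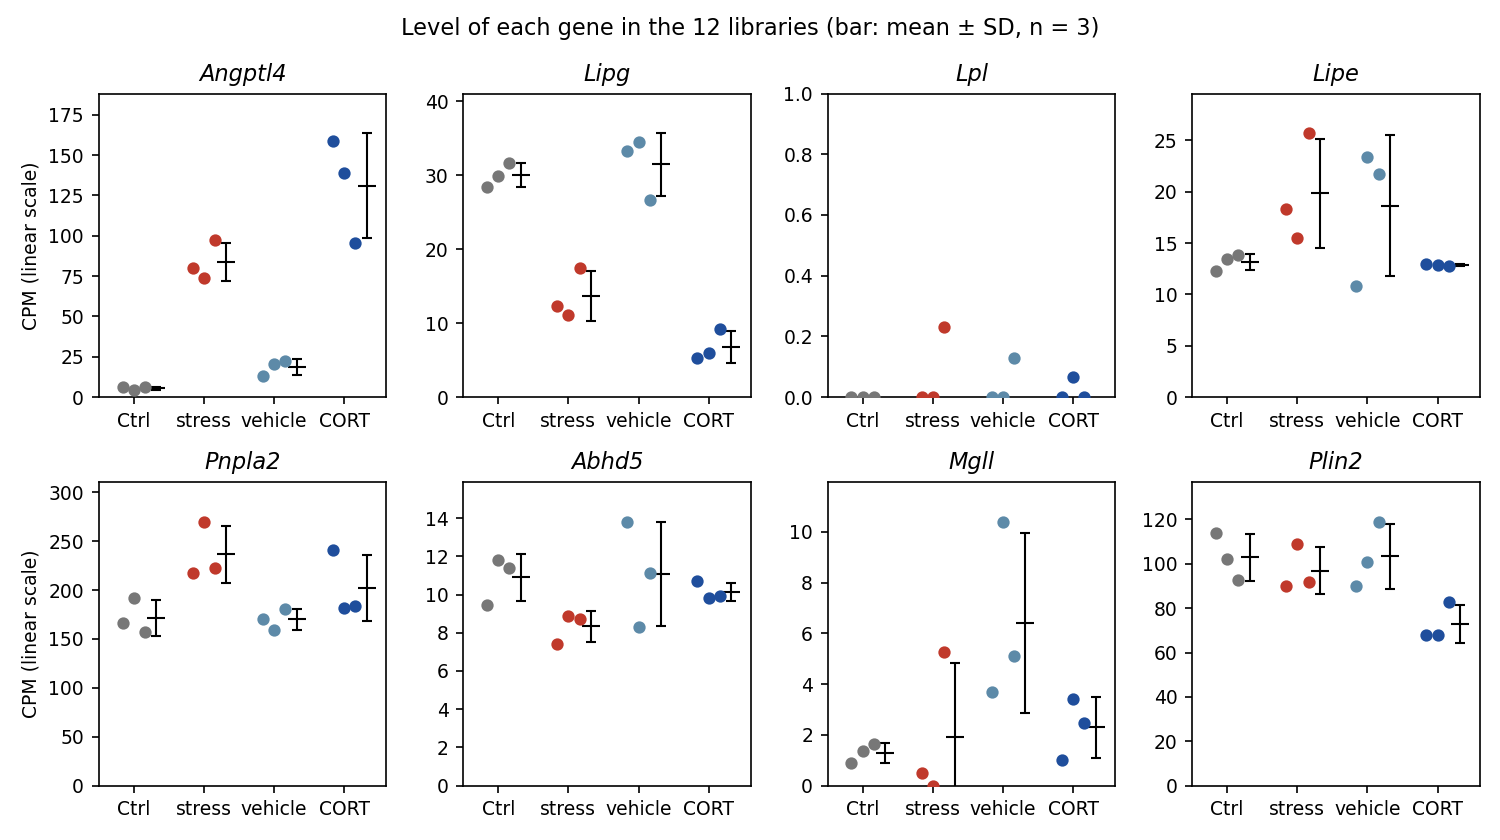
CPM of each of the 8 genes in the 12 libraries, with 1 panel per gene, points for libraries and black bars for the mean ± SD of 3 libraries (none for *Lpl*), on linear axes from 0, where the *Mgll* bar in stress is cut. *Angptl4* separates all treated libraries from their controls upward, *Lipg* separates them downward, and *Lpl* stays at or under 0.231 CPM.

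*Lipg* encodes endothelial lipase, a secreted relative of lipoprotein lipase that acts mainly on phospholipids of high-density lipoprotein, and it ran opposite to *Angptl4*. *Lipg* (mm10, chr18:74939322-74961263, minus strand, up to 10 exons) was at 28.4, 29.9 and 31.6 CPM in Ctrl 1, 2 and 3, and at 12.3, 11.1 and 17.5 CPM in stress 1+2, 3 and 4+5+6. It was at 33.2, 34.5 and 26.6 CPM in vehicle 3, 5 and 6, and at 5.25, 5.93 and 9.22 CPM in CORT 2, 4 and 5. Every treated library lay below every control library, and the CORT libraries lay below the stress libraries. The log2 fold change was -1.13 (SE 0.18) in stress vs. Ctrl, 2.19-fold lower, and -2.22 (SE 0.22) in CORT vs. vehicle, 4.67-fold lower. The call in stress vs. Ctrl (adjusted p below 0.05 and above 2-fold) was lost when Ctrl 1, 2 or 3 or stress 1+2 was left out, with log2 fold changes between -1.35 and -1 over the 6 omissions, and also on FPKM and without a count filter. Vehicle and Ctrl overlapped (log2 fold change 0.07, SE 0.14, edgeR adjusted p = 0.908).

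*Lpl* itself (mm10, chr8:68880491-68907448, plus strand, up to 11 exons) was at 0 in 9 of the 12 libraries. Stress 4+5+6, vehicle 6 and CORT 4 had 4 counts each, about 1 read pair, under the 12 counts taken as the limit. No fold change was computed, and in Ctrl the limit allows a level of up to 0.732 CPM. The sorted cells thus held RNA of the inhibitor in every library, and RNA of its target enzyme was not measurable in any.

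The enzyme of the first cut inside the cell, *Pnpla2* (mm10, chr7:141455198-141460743, plus strand, up to 10 exons), was the most abundant member and moved little. It was at 166, 192 and 157 CPM in Ctrl 1, 2 and 3, and at 217, 270 and 223 CPM in stress 1+2, 3 and 4+5+6. It was at 170, 159 and 181 CPM in vehicle 3, 5 and 6, and at 241, 182 and 184 CPM in CORT 2, 4 and 5. All stress libraries were above Ctrl (log2 fold change 0.47, SE 0.11), and all CORT libraries above vehicle, CORT 4 by under 2 CPM (0.25, SE 0.12, and 0.10 without CORT 2). Vehicle did not pass against Ctrl (-0.01, SE 0.09, adjusted p = 0.984).

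*Abhd5*, which activates the *Pnpla2* enzyme (mm10, chr9:122351608-122381524, plus strand, up to 8 exons), was at 9.47, 11.8 and 11.4 CPM in Ctrl 1, 2 and 3 and at 7.4, 8.86 and 8.72 CPM in stress 1+2, 3 and 4+5+6. It was at 13.8, 8.32 and 11.1 CPM in vehicle 3, 5 and 6 and at 10.7, 9.84 and 9.91 CPM in CORT 2, 4 and 5. The stress libraries lay below Ctrl (log2 fold change -0.39, SE 0.20), opposite in sign to *Pnpla2*, and the CORT libraries lay within the spread of vehicle (-0.13, SE 0.20). No comparison called it, and vehicle vs. Ctrl gave 0.03 (SE 0.22, adjusted p = 0.983).

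*Lipe* (mm10, chr7:25379527-25398710, minus strand, up to 10 exons), the hormone-sensitive lipase, was at 12.3, 13.4 and 13.8 CPM in Ctrl 1, 2 and 3 and at 18.3, 15.5 and 25.7 CPM in stress 1+2, 3 and 4+5+6. It was at 10.8, 23.4 and 21.7 CPM in vehicle 3, 5 and 6 and at 13.0, 12.9 and 12.8 CPM in CORT 2, 4 and 5. The CORT libraries were the most alike, while the highest values of the stress and vehicle groups were in the libraries with high *Xist*. Within stress *Lipe* also followed the order of the enterocyte sums, whose part was not tested. The log2 fold change was 0.59 (SE 0.20) in stress vs. Ctrl and -0.54 (SE 0.25) in CORT vs. vehicle. Vehicle vs. Ctrl gave 0.51 (SE 0.25, adjusted p = 0.501), and with *Xist* as a covariate -0.64 (SE 0.31, adjusted p = 0.855). A gene on the opposite strand, *4732471J01Rik*, spans *Lipe* with at most 40 counts, and counting was not stated to use strand.

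*Mgll* (mm10, chr6:88724412-88828360, plus strand, up to 9 exons) cuts the last fatty acid from glycerol and was close to the limit of measurement. It was at 0.877, 1.38 and 1.65 CPM in Ctrl 1, 2 and 3 and at 0.498, 0 and 5.25 CPM in stress 1+2, 3 and 4+5+6. It was at 3.69, 10.4 and 5.09 CPM in vehicle 3, 5 and 6 and at 1.02, 3.4 and 2.48 CPM in CORT 2, 4 and 5. Vehicle lay above both Ctrl and CORT, and stress ran from 0 to above Ctrl with 1 library deciding the mean, stress 4+5+6, which also had the highest enterocyte (1864 CPM) and goblet cell (1387 CPM) sums. The part of those cells was not tested. The log2 fold change in stress vs. Ctrl was 0.57, with an SE larger than the value, and -2.35 (SE 1.10) without stress 4+5+6. In CORT vs. vehicle it was -1.48 (SE 0.49). Vehicle passed the test against Ctrl (2.30, SE 0.45, 4.91-fold, edgeR adjusted p = 0.0428). This call was lost when any one of Ctrl 1, 2 and 3 and vehicle 5 and 6 was left out (adjusted p = 0.0943 to 0.232), and with *Xist* as a covariate (1.02, SE 0.66, adjusted p = 0.919). *Gm26588*, on the opposite strand over the start of *Mgll*, had at most 44 counts.

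*Plin2*, the droplet coat gene (mm10, chr4:86648386-86670060, minus strand, up to 8 exons), was at 114, 102 and 92.8 CPM in Ctrl 1, 2 and 3 and at 90.2, 109 and 91.6 CPM in stress 1+2, 3 and 4+5+6. It was at 89.9, 101 and 119 CPM in vehicle 3, 5 and 6 and at 67.8, 68.0 and 82.6 CPM in CORT 2, 4 and 5. Ctrl, stress and vehicle overlapped, and the 3 CORT libraries lay below all others. The log2 fold change was -0.09 (SE 0.11) in stress vs. Ctrl and -0.51 (SE 0.12) in CORT vs. vehicle, 1.42-fold lower. Vehicle vs. Ctrl gave 0.01 (SE 0.11, adjusted p = 0.985).

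Promoter sequence from RefSeq (GRCm38.p6) was matched by symbol for 5 of the 8 genes, *Lipe*, *Pnpla2*, *Abhd5*, *Mgll* and *Plin2*. Windows of 300 bases, from 250 before to 50 after each annotated start, were searched on both strands for AGAACA, the core of a glucocorticoid receptor site, and AGGTCA, the core of a PPAR and RXR site. The full forms contain those cores and were searched too, namely AGAACA facing its reverse complement across 3 bases, and AGGTCA repeated in the same direction after 1 base. *Plin2* and *Abhd5* held 1 AGGTCA each, at positions -218 and -69 from the start. *Mgll* held 1 AGAACA, at position -178 from the first of its 2 annotated starts. The other windows, those of *Lipe* and *Pnpla2* and the second start of *Mgll*, held none, and none held a full form. Of 32851 promoter windows, 19% held AGAACA, 16.3% AGGTCA, 0.00913% the full glucocorticoid receptor form and 0.0396% the full PPAR form. A match is only a match of letters. The 250 bases before the start are shown for *Plin2*, the intracellular gene past the adjusted threshold in CORT vs. vehicle by edgeR (chr4:86670060-86670309, minus strand) and for *Mgll*, the one past it in vehicle vs. Ctrl (chr6:88724162-88724411, plus strand), 5′ to 3′, with the matched core in capitals (TGACCT and TGTTCT are the cores read on the other strand).
Plin2: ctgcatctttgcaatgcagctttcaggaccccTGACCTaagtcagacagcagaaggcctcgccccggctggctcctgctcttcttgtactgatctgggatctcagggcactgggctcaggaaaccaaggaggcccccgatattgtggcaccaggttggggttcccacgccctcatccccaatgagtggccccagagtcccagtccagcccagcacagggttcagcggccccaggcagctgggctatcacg
Mgll: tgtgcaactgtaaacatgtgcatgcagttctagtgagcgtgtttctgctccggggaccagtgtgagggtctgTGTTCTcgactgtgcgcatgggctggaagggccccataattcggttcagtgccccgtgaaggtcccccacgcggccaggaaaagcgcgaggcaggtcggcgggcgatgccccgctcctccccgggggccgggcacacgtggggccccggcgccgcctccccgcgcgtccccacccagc

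In counts, 2 of the 7 tested members were called (adjusted p below 0.05 and above 2-fold) in stress vs. Ctrl, *Angptl4* higher and *Lipg* lower, where 0.751% of 13722 genes were called, 0.612% higher and 0.138% lower. The same 2 were called in CORT vs. vehicle, where 1.87% of 14656 genes were called, 1.13% higher and 0.737% lower. Without the fold limit *Plin2* joined them in CORT vs. vehicle (8.13% of all genes), and none joined in stress vs. Ctrl by edgeR (1.89% of all genes), where *Pnpla2* did by DESeq2, and by edgeR with at least 10 counts in every library or with counts divided by 4. *Lipe* passed in stress vs. Ctrl without stress 3 (log2 fold change 0.74) and in CORT vs. vehicle without vehicle 3 (-0.81). The *Plin2* call was lost without vehicle 5, vehicle 6, CORT 2 or CORT 4, with log2 fold changes of -0.61 to -0.39 over the 6 omissions. The groups did not overlap for 5 of the 7 in stress vs. Ctrl (20.4% of all genes) and for 5 in CORT vs. vehicle (28.7%). Nothing was read from these shares, as the members were chosen on those contrasts. In vehicle vs. Ctrl *Angptl4* and *Mgll* were called, with and without the fold limit, where 0.359% of 13642 genes were called with it, 0.227% higher and 0.132% lower, and 0.799% without it. These were also the 2 members whose groups did not overlap there (16.3% of all genes). The median log2 fold change of the 7 was 0.47, -0.51 and 0.07 in stress vs. Ctrl, CORT vs. vehicle and vehicle vs. Ctrl, beside medians within 0.014 of 0 over all genes.

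**Figure D3:**
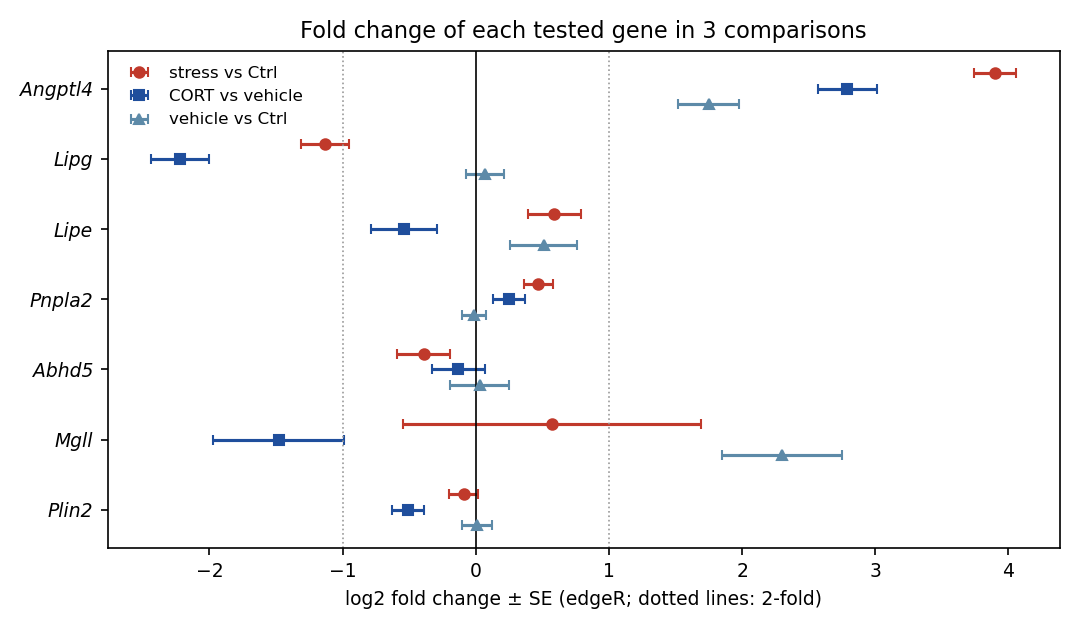
log2 fold change with its SE (edgeR) of the 7 tested genes in stress vs. Ctrl (circles), CORT vs. vehicle (squares) and vehicle vs. Ctrl (triangles), where dotted lines mark 2-fold. *Angptl4* lies to the right of 1 in all 3, *Lipg* lies to the left of -1 in stress and CORT and at 0.07 in vehicle, and *Mgll* has the widest error in stress vs. Ctrl.

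The responses to stress and CORT were set side by side through their difference on the log2 scale (stress minus Ctrl, less CORT minus vehicle). It was 1.11 (SE 0.30) for *Angptl4*, 1.09 (SE 0.30) for *Lipg* and 1.13 (SE 0.35) for *Lipe*. It was 0.21 (SE 0.17) for *Pnpla2*, -0.26 (SE 0.27) for *Abhd5*, 0.42 (SE 0.17) for *Plin2* and 2.05 (SE 1.32) for *Mgll*. The signs of both responses were opposite for *Lipe* and *Mgll*, and the *Mgll* value was -0.90 without stress 4+5+6. Each value contains the difference between the control groups, so that for *Angptl4* the larger fold in stress goes with the lower level in Ctrl, while its level was higher in CORT than in stress.

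Levels between genes were compared per length, as deposited FPKM. In Ctrl the order was *Pnpla2* (66.1 ± 9.7 FPKM), *Plin2* (50.5 ± 4.74), *Lipg* (7.12 ± 0.467), *Lipe* (3.52 ± 0.0372), *Abhd5* (3.37 ± 0.0642), *Angptl4* (1.71 ± 0.332), *Mgll* (0.339 ± 0.0341) and *Lpl* at 0. The means of *Lipe* and *Abhd5*, and relative to their spread those of *Pnpla2* and *Plin2*, were close, although libraries of neighbours in this order did not overlap in Ctrl. In CORT *Pnpla2* (76.1 ± 19.7 FPKM) was followed by *Angptl4* (42.7 ± 11.3) and *Plin2* (34.1 ± 3.61), whose libraries overlapped, and *Lipg* (1.54 ± 0.466) had fallen below *Lipe* (3.33 ± 0.0896) and *Abhd5* (2.94 ± 0.255). Percentiles were taken among genes with an FPKM above 0, which numbered 19070 in Ctrl and 21574 in the deeper CORT libraries, so that a percentile also moves with depth. *Angptl4* stood at percentile 42.4 in Ctrl, 57 in vehicle, 85.8 in stress and 92 in CORT. *Lipg* stood at percentile 60.4, 61.7, 49.2 and 48.3 in those groups. *Pnpla2* stayed between percentiles 94.2 and 96, and *Plin2* between 89.9 and 92.4.

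The genes whose log2 CPM was most like that of *Angptl4* over the 12 libraries, among 14415 genes, were *Pdk4* (Pearson's r = 0.983), *Zbtb16* (0.97), *Acot5* (0.967), *Akr1b7* (0.958), *Nr1h4* (0.954), *Eif4ebp3* (0.952), *Atp5sl* (0.952), *B3gnt3* (0.948), *Sra1* (0.945) and *Nrn1* (0.944). These values describe libraries that fall into 4 groups, and mostly restate the group means. With group means removed they were 0.118 (*Sra1*) to 0.779 (*Acot5*). *Acot5* had 0 counts in all Ctrl libraries and in vehicle 3, and 9 in vehicle 5, under the limit of 12. *Zbtb16* lay under it in Ctrl 2 and 3, so both r values rest in part on unmeasured levels. *Pdk4*, a kinase that shuts pyruvate dehydrogenase and so spares glucose, was at 0.936 to 1.85 CPM in Ctrl, 8.88 to 9.63 in vehicle, 38.2 to 98.1 in stress and 83.4 to 206 in CORT, the same order of groups as *Angptl4*. Within CORT, *Angptl4* and *Pdk4* were both highest in library 2 and lowest in library 5, and within stress both were lowest in library 3. In the control groups they ran apart, as *Pdk4* was highest in vehicle 3 and in Ctrl 2, where *Angptl4* was lowest. *Nr1h4*, the bile acid receptor FXR, went from 16.9 ± 0.892 CPM in Ctrl to 20.8 ± 4.12 in vehicle, 30.3 ± 2.39 in stress and 30.5 ± 2.82 in CORT. Among the members, r with *Angptl4* was -0.874 for *Lipg* and 0.637 for *Pnpla2*, and -0.62 for *Plin2*. With group means removed it was -0.362, 0.0488 and -0.0169. For *Lipe*, *Abhd5* and *Mgll* r was 0.197, -0.461 and -0.118 over the libraries, and 0.676, -0.405 and 0.285 with group means removed.

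Genes around the 8 were read from lists of their pathways. The lists were drawn up with results of these data known, so that their counts are not independent evidence, and adjusted p-values were computed over all genes. At any fold, 1.89% of all genes passed in stress vs. Ctrl, 8.13% in CORT vs. vehicle and 0.799% in vehicle vs. Ctrl, and counts near these shares say nothing particular about a list. Of 21 measured genes that control lipoprotein lipase or related lipases and their receptors, none passed in stress vs. Ctrl (edgeR, 3 at an unadjusted p below 0.05, 2 by DESeq2). In CORT vs. vehicle 2 rose and 1 fell. *Sort1*, a sorting receptor, rose by 0.44 on the log2 scale (SE 0.08, adjusted p = 0.00972), and *Pcsk5*, a convertase that cuts secreted precursors, by 0.47 (SE 0.12, adjusted p = 0.0444). *Pcsk5* was at 25.3 ± 2.54 CPM in vehicle, 35.2 ± 3.61 in CORT and 32.2 ± 2.63 in Ctrl. *Sdc1*, a heparan sulfate proteoglycan that takes up lipoproteins, fell 1.92-fold, from 226 ± 24.2 to 118 ± 6.51 CPM (adjusted p = 6.5e-04). None of the 21 passed in vehicle vs. Ctrl (edgeR, 4 at an unadjusted p below 0.05, 1 by DESeq2). The median log2 fold change was 0.15 in stress and -0.02 in CORT.

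Among 27 partners of lipolysis and neutral lipases, 2 rose in stress vs. Ctrl, and both also rose in CORT vs. vehicle. *Aadac*, a lipase of the endoplasmic reticulum, rose from 76.5 ± 5.91 to 113 ± 8.06 CPM in stress (1.48-fold, adjusted p = 0.018) and from 63 ± 8.25 to 99.6 ± 4.3 CPM in CORT (1.58-fold, adjusted p = 0.00518). *Ces1d*, a carboxylesterase that cuts triglyceride, rose 1.32-fold in stress (adjusted p = 0.0496) and 1.85-fold in CORT (adjusted p = 0.00108), and was 1.47-fold lower in vehicle than in Ctrl (adjusted p = 0.0162). *Daglb*, which makes the monoacylglycerol that the *Mgll* enzyme cuts, fell 1.88-fold in CORT, from 31 ± 1.69 to 16.5 ± 0.612 CPM (adjusted p = 0.00166), and was at 22.6 ± 1.21 CPM in Ctrl and 21.8 ± 1.8 in stress. No other gene of this list passed by edgeR in these comparisons. By DESeq2 3 passed in stress vs. Ctrl, 8 in CORT vs. vehicle and 1 in vehicle vs. Ctrl.

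Of 28 genes of the droplet coat and its assembly measured in stress vs. Ctrl none passed (edgeR, 4 at an unadjusted p below 0.05, 1 by DESeq2), and in vehicle vs. Ctrl none of 28 did (4 and 1 by the same counts). In CORT vs. vehicle 1 of 30 rose and 2 fell. *Acsl3*, an acyl-CoA synthetase found on growing droplets, rose 1.61-fold, from 62 ± 5.06 to 99.9 ± 9.48 CPM (adjusted p = 0.00298). *Hsd17b11*, a droplet enzyme, fell 1.48-fold (adjusted p = 0.0285), and *Mettl7b* fell 1.76-fold (adjusted p = 0.0365). *Hsd17b11* was at 158 ± 31.4 CPM in vehicle and 107 ± 1.66 in CORT, close to the 110 ± 15.6 in Ctrl. *Mettl7b* was at 14.1 ± 3.46 CPM in vehicle, 8.02 ± 0.501 in CORT and 10.5 ± 1.48 in Ctrl.

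Of 24 genes of triglyceride synthesis and export, 1 rose in stress vs. Ctrl, 3 rose and 2 fell in CORT vs. vehicle, and 1 rose in vehicle vs. Ctrl. *Mogat2*, which reassembles triglyceride from absorbed monoacylglycerol in enterocytes, was at 21.3, 15.4 and 53.5 CPM in stress 1+2, 3 and 4+5+6 against 7.31 to 8.66 CPM in Ctrl (3.7-fold, adjusted p = 0.0444), in the same order of libraries as the enterocyte markers. The part of enterocyte RNA in this result was not tested. In CORT, *Acsl1*, an acyl-CoA synthetase, rose 2.34-fold (adjusted p = 8.3e-04), *Lpin1*, a phosphatidate phosphatase, rose 2.13-fold (adjusted p = 0.02) and *Agpat2*, an acyltransferase, fell 1.56-fold (adjusted p = 0.00768). *Agpat4* was 2.03-fold higher in vehicle than in Ctrl (adjusted p = 0.0204).

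In fatty acid uptake and binding, *Fabp1*, which is also one of the enterocyte markers, was at 54.8, 32.8 and 212 CPM in stress 1+2, 3 and 4+5+6 against 9.53 ± 1.22 CPM in Ctrl (log2 fold change 3.39, adjusted p = 0.0221). Its order of libraries was again that of the enterocyte markers, whose part was not tested. In vehicle it was 35.9 ± 18.9 CPM (3.77-fold over Ctrl, adjusted p = 0.0183), where no library had an enterocyte sum above the highest Ctrl library. *Slc27a1*, a fatty acid transporter, was 1.55-fold higher in vehicle than in Ctrl (adjusted p = 0.0428). In CORT vs. vehicle *Ffar4*, a receptor for long-chain fatty acids, fell 3.86-fold, from 6.48 ± 2.57 to 1.66 ± 0.855 CPM (adjusted p = 0.025). There *Fabp2* rose 1.38-fold (adjusted p = 0.0251), from 75.3 ± 9.72 to 104 ± 6.9 CPM, close to the 105 ± 18.2 in Ctrl. These were the only genes of the list that passed by edgeR in the 3 comparisons. By DESeq2 2 passed in stress vs. Ctrl, 4 in CORT vs. vehicle and 4 in vehicle vs. Ctrl.

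Of the PPAR factors and their fasting targets, most did not pass in any single comparison, and the list was described by its counts, with median log2 fold changes of 0.27 in stress, -0.12 in CORT and 0.29 in vehicle. In stress vs. Ctrl 5 of 30 rose and none fell. *Pdk4* rose 51.9-fold (adjusted p = 1.2e-04), *Txnip*, an arrestin that limits glucose uptake, rose from 503 ± 36.7 to 1250 ± 148 CPM (2.49-fold, adjusted p = 2.3e-04), and *Ppargc1a*, a coactivator of PPAR receptors, rose 2.18-fold (adjusted p = 0.0149). *Acot2* and *Acot1*, thioesterases that release fatty acids from acyl-CoA, rose 2.3-fold (adjusted p = 0.0146) and 1.84-fold (adjusted p = 0.0203), and their close sequences could share reads. Within stress *Pdk4*, *Ppargc1a*, *Acot2* and *Acot1* followed the order of the enterocyte sums and *Txnip* did not, and the part of enterocyte RNA was not tested. In CORT vs. vehicle 5 of 31 rose and 6 fell. *Pdk4* rose 17.1-fold (adjusted p = 1.8e-04), *Ppargc1a* 2.77-fold (adjusted p = 0.00117), *Ppara*, the receptor that drives the fasting program in liver, 2.47-fold (adjusted p = 0.00916) and *Txnip* 2.24-fold (adjusted p = 0.0141). *Acadl*, an enzyme of fatty acid oxidation, fell 1.58-fold (adjusted p = 0.00199), and *Creb3l3*, a transcription factor of fasting liver and gut, fell 2.21-fold (adjusted p = 0.0381).

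In vehicle vs. Ctrl 8 of 30 genes of this list rose and 1 fell. *Creb3l3* was 5.01-fold higher (adjusted p = 0.00467), *Pdk4* 6.33-fold (adjusted p = 0.00339), *Acot1* 2.69-fold (adjusted p = 0.00661) and *Acadl* 2.12-fold (adjusted p = 4.0e-04). *Angptl4* and these 4 genes were thus all higher in vehicle than in Ctrl, in every vehicle library including the one with low *Xist*. Against that raised level in vehicle, *Angptl4* and *Pdk4* rose further in CORT, and *Acadl* and *Creb3l3* fell. For both genes that fell, all CORT libraries stayed above all Ctrl libraries. *Acadl* was at 124 ± 6.71 CPM in CORT and 92.4 ± 8.67 in Ctrl, and *Creb3l3* at 17.3 ± 2.57 and 7.64 ± 0.561. CORT was not tested against Ctrl. *Creb3l3* was also above Ctrl in every stress library (4.81-fold, edgeR adjusted p = 0.0715), in the order of the enterocyte sums, whose part was not tested. *Txnip* and *Ppargc1a* did not pass in vehicle vs. Ctrl (adjusted p = 0.808 and 0.714). With *Xist* as a covariate the genes of all 8 lists called higher in vehicle vs. Ctrl numbered 3, in place of 10.

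**Figure D4:**
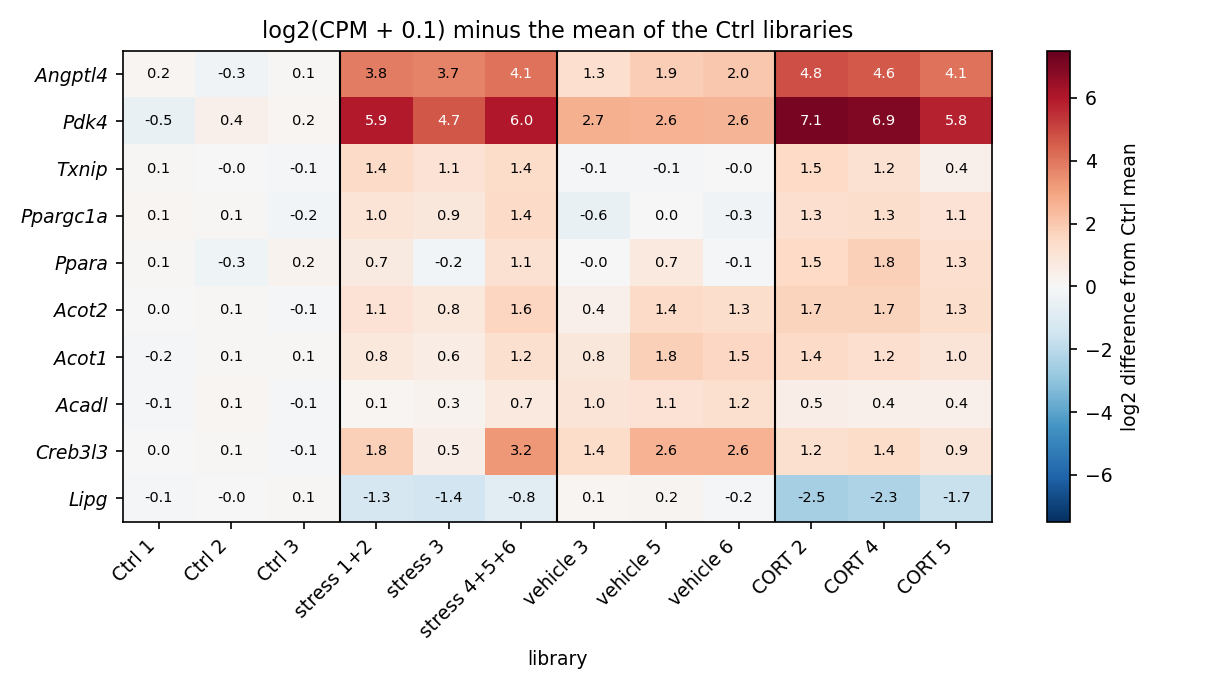
log2(CPM + 0.1) of *Angptl4*, *Lipg* and 8 PPAR factors and fasting targets in each library, as the difference from the mean of the 3 Ctrl libraries, with libraries in columns and red for higher. *Angptl4* and *Pdk4* are red in stress, paler in vehicle and darkest in CORT 2 and 4, and *Lipg* is blue in stress and CORT. *Acadl* is raised most in vehicle, and *Creb3l3* is raised in vehicle, stress and CORT.

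Of the glucocorticoid targets, chosen with such results known, 11 of 21 passed in stress vs. Ctrl (1.89% of all genes) and 13 of 22 in CORT vs. vehicle (8.13% of all genes), all of them higher. Its median log2 fold changes of 1.24 and 1.58 stood beside -0.0028 and 0.014 for all genes. *Sgk1*, a kinase that promotes sodium uptake, rose 12.2-fold in stress (adjusted p = 6.7e-05) and 55.8-fold in CORT (adjusted p = 7.2e-04). Its CORT libraries 2, 4 and 5 lay far apart, at 668, 384 and 115 CPM, against 6.91 ± 0.556 CPM in vehicle. *Zbtb16*, a transcription factor, was higher in stress, at 61.3 ± 5.64 CPM (adjusted p = 2.3e-04). Ctrl 1, 2 and 3 had 40, 5 and 6 counts, with Ctrl 2 and 3 under the limit of 12, so no exact fold is given. In CORT it rose 25.4-fold (adjusted p = 0.00106), from 2.14, 14.5 and 3.76 CPM in vehicle 3, 5 and 6. *Tsc22d3*, the glucocorticoid-induced leucine zipper, rose 2.91-fold in stress (adjusted p = 1.5e-04) and 4.82-fold in CORT (adjusted p = 5.8e-05). *Fkbp5*, a chaperone partner that restrains the glucocorticoid receptor, was at 64 ± 5.15 CPM in Ctrl, 171 ± 28.6 in vehicle, 210 ± 36.5 in stress and 917 ± 47.6 in CORT. It was the gene of this list that, like *Angptl4*, was higher in vehicle than in Ctrl (2.68-fold, adjusted p = 4.0e-04), with *Hif3a* (5.45-fold, adjusted p = 0.0428) and *Sult1a1* (5.52-fold, adjusted p = 0.00355). *Sgk1* (2.39-fold, adjusted p = 0.0206) and *Dusp1* (adjusted p = 0.0196) were lower in vehicle. *Dusp1* had 10, 4 and 51 counts in vehicle 3, 5 and 6, with vehicle 3 and 5 under the limit of 12, so no exact fold is given. *Ddit4*, *Klf9*, *Errfi1*, *Per1* and *Hif3a* rose in both stress and CORT, by 1.78-fold (*Per1* in stress) to 9.05-fold (*Hif3a* in stress). *Hif3a* had 11 counts in Ctrl 1, under the limit of 12, so its folds over Ctrl are approximate. *Bcl6*, *Cdkn1a*, *Mt1* and *Mt2* passed in CORT vs. vehicle and not in stress vs. Ctrl, where *Cdkn1a* was 2.45-fold higher with groups that did not overlap (adjusted p = 0.139), and its difference of responses did not pass. The gluconeogenic genes *Pck1* (11.3-fold, adjusted p = 0.0441) and *G6pc*, at 0 in all Ctrl libraries and at 3.48, 2.06 and 8.14 CPM in stress 1+2, 3 and 4+5+6 (adjusted p = 0.0102, at least 6.36-fold higher against the limit of 12 counts per library), passed in stress, again highest in the library with the most enterocyte RNA, whose part was not tested. *Pck1* was at 24.4, 2.73 and 37.3 CPM in stress 1+2, 3 and 4+5+6 against 1.89 ± 0.173 CPM in Ctrl, so that stress 3 lay close to Ctrl.

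Hypoxia, another known inducer of *Angptl4*, was read from 18 measured targets. None passed in stress vs. Ctrl (edgeR, 6 at an unadjusted p below 0.05, 2 by DESeq2) or in vehicle vs. Ctrl (6 at an unadjusted p below 0.05, 0 by DESeq2). In CORT vs. vehicle *Hk2*, a hexokinase, rose 1.68-fold (adjusted p = 0.0011) and *Aldoa*, a glycolytic enzyme, fell 1.22-fold (adjusted p = 0.0458). The median log2 fold change was -0.04 in stress and 0.09 in CORT.

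Over the 8 lists, whose genes number 210 without repeats, 16 were called in stress vs. Ctrl by edgeR, all of them higher, 19 higher and 2 lower in CORT vs. vehicle, and 10 higher and 2 lower in vehicle vs. Ctrl. The difference between both responses passed for 6 of these genes, where 0.388% of 14415 genes passed, and for none of them without Ctrl 2 or CORT 4. *Fabp1*, *Acadl* and *Daglb* had the higher response in stress, and *Bcl6*, *Mt1* and *Mt2* in CORT. Each of these values also contains the difference between vehicle and Ctrl.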

How the data were processed

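Reads were mapped by the authors to mm10 with HISAT2 and genes were quantified with StringTie (both 2.2.1 in the submitters' processing notes, while the methods name another HISAT2 version and other counting software). The deposited table holds estimated counts (75 covered bases per count, rounded here to whole numbers). The authors also deposited FPKM, used for levels between genes and for alternatives, mean coverage, a signal per base that gave the unit of the counts, and TPM, which no result uses. All columns had a sample (0 did not).

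Each pair of groups (6 libraries) was fitted across all genes with edgeR 4.0.16 in R 4.3.3 (quasi-likelihood F-test, TMM, filterByExpr), with Benjamini-Hochberg adjustment over all genes tested. Genes were called at an adjusted p-value below 0.05 and above 2-fold. SE is the absolute log2 fold change divided by the square root of F. The difference of responses used 12 libraries. Alternatives were DESeq2 1.42.0, its size factors, other count filters, a joint fit, counts divided by 4, limma 3.58.1 on log2(FPKM + 1) and log2(FPKM + 0.1) for genes with a mean FPKM of at least 0.5, omission of each library and, added after the data had been seen, *Xist* as a covariate and vehicle 3 alone. No 2 libraries of a group were alike within counting noise (chi-square per gene 2.49 to 27.5, after division of the counts by 4 to read pairs).

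The members and the lists were chosen with earlier results of these data known. Named are all 8 members, list genes called or among the 3 smallest adjusted p-values of a comparison, and the 10 genes most correlated with *Angptl4* (log2 CPM, prior count 2). *Ddx3y*, *Xist* and single marker genes were chosen after their values were seen. For the 126 repeated symbols, the ID with the most counts on average stood for the symbol. A marker gene and a list gene that the rule would name are not reported here, and the marker was left out of its sum.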

Additional observations from a re-analysis of the deposited data

Results flagged for a closer look

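For 6 genes of the pathway lists the response to stress differed from that to CORT, by the edgeR test of the difference on 12 libraries, given as stress minus CORT on the log2 scale. Each value contains the difference between vehicle and Ctrl. Those control groups did not overlap for *Fabp1*, *Acadl*, *Daglb* and *Bcl6*, and overlapped for *Mt1* and *Mt2*. No list gene passed when Ctrl 2 or CORT 4 was left out, and 3 did with each limma fit. *Fabp1* differed by 4.65 (SE 0.81, adjusted p = 0.0294), with a response of 3.39 in stress and -1.26 in CORT, and its stress libraries were also those with the most enterocyte RNA, whose part was not tested. *Fabp1* was at 35.9 ± 18.9 CPM in vehicle, 15 ± 4.86 in CORT and 9.53 ± 1.22 in Ctrl. *Acadl* differed by 1.05 (SE 0.18, adjusted p = 0.0294), with 0.40 and -0.66, and its level in vehicle, 196 ± 15.5 CPM, was above all other groups. *Daglb* differed by 0.86 (SE 0.16, adjusted p = 0.0358), with -0.05 and -0.91, and was at 31 ± 1.69 CPM in vehicle and 22.6 ± 1.21 in Ctrl. *Bcl6* differed by -2.36 (SE 0.37, adjusted p = 0.0173), with -0.53 and 1.83, and was at 11 ± 2.94 CPM in vehicle and 20.2 ± 2.4 in Ctrl. *Mt2* differed by -2.31 (SE 0.35, adjusted p = 0.0139), with 0.17 and 2.48, and *Mt1* by -1.13 (SE 0.19, adjusted p = 0.0267), with 0.13 and 1.25. With 3 libraries per group no test for a stray library was applied.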

How the results depend on the processing

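No paired analysis was run, as neither the labels nor the study pair mice between groups. *Angptl4* kept its direction and call in stress vs. Ctrl and in CORT vs. vehicle under all alternatives run, and *Lipg* did so in CORT vs. vehicle. Where a value below changed, the cause was not tested.

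In stress vs. Ctrl the members called numbered 1 in place of 2 without a count filter and with limma on log2(FPKM + 1) or log2(FPKM + 0.1), and 1 to 2 when a library was left out. They numbered 2 at each omission in CORT vs. vehicle, and 3 there by DESeq2 and with *Xist* as a covariate, where *Mgll* was called too. In vehicle vs. Ctrl they numbered 1 without a filter, with 12 libraries in one fit and with both limma fits, 0 with *Xist* as a covariate and with vehicle 3 alone, and 1 to 2 at the omissions. The *Angptl4* value there was 0.99 with the covariate and 1.26 with vehicle 3 alone, both past no threshold, and 1.61 to 1.94 at the omissions. For *Mgll* the call was lost without a filter (2.30, adjusted p = 0.0522), in the joint fit (2.29), with limma (1.11 and 2.14), with the covariate (1.02) and with vehicle 3 alone (1.51), and the omissions gave 1.76 to 2.57.

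List genes called higher in stress vs. Ctrl numbered 9 without a filter, 10 and 9 with limma, and 10 to 33 at the omissions (33 without stress 3, 10 without Ctrl 1 or Ctrl 2), in place of 16. Those called lower in CORT vs. vehicle numbered 1 in the joint fit and 0 to 4 at the omissions (4 without vehicle 3, 0 without vehicle 6, CORT 4 or CORT 5). Those called higher in vehicle vs. Ctrl numbered 6 with limma on log2(FPKM + 0.1), 3 with the covariate, 5 with vehicle 3 alone and 5 to 11 at the omissions. Those called lower there numbered 1 with at least 10 counts in every library, in the joint fit and with vehicle 3 alone, 0 with both limma fits and the covariate, and 0 to 3 at the omissions. List genes with a difference of responses numbered 25 by DESeq2, 10 with at least 10 counts in every library, 3 with each limma fit and 0 to 23 at the omissions (23 without stress 3, 0 without Ctrl 2 or CORT 4), in place of 6.

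Some signs turned. *Mgll* in stress vs. Ctrl became -2.35 without stress 4+5+6 and -2.01 with the covariate, and its difference of responses became -0.90 without that library. The values without that library rest on no measured stress level, as stress 1+2 and 3 had 8 and 0 counts of *Mgll*. *Abhd5* in CORT vs. vehicle ranged from -0.29 to 0.053 at the omissions (0.053 without vehicle 3). In vehicle vs. Ctrl *Lipg* ranged from -0.0035 (without vehicle 5) to 0.18 at the omissions, *Pnpla2* from -0.071 to 0.077 (0.077 without Ctrl 2 and 0.034 without vehicle 5, and 0.066 with the covariate), and *Abhd5* from -0.16 to 0.19 (-0.061 without Ctrl 1 and -0.16 without vehicle 3, and -0.08 and -0.11 with limma). There *Lipe* became -0.64 with the covariate and -0.28 with vehicle 3 alone, and *Plin2* became -0.21 and -0.19, and -0.057 without Ctrl 3 and -0.10 without vehicle 6. Depth limits *Lpl* and *Mgll*, which lie under or near 12 counts in several libraries.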
